A study of Danio rerio with 21 samples.

Results

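Control zebrafish of 60 days post-fertilization (dpf) were compared with control zebrafish of 45 dpf, that is the groups C60D and C45D, with 3 libraries each, 6 of the 21 libraries in the series. The members were taken by their library names. The series followed gonadal differentiation in fish kept at normal temperature and in fish heated during juvenile life, in 7 groups. C60D and C45D were both AB strain wild type fish kept at 28 °C throughout, and came from the same spawnings as the heated groups T60D and T45D, which had been held at 35 °C from 25 to 35 dpf and then returned to 28 °C. The methods describe RNA from the whole body of fish of a single family, with several fish collected at each time. For the extraction, the methods state that about 60 mg of tissue was ground. How many fish entered a library, and their sex, were not given in the sources used here.

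Between 45 and 60 dpf zebrafish pass from the late juvenile to the young adult form, and the gonads complete their differentiation into ovaries or testes. A whole-body library mixes every organ, and the level of an organ's own genes depends on how much of that organ entered the RNA. In such bulk samples, fewer cells of a type and less RNA per cell cannot be told apart. Lens crystallins, visual pigments, plasma proteins of the liver and digestive enzymes are each made almost only in their own organ. Their levels therefore depend on the share of that organ's RNA in the sample and on their expression within it. Levels are given as CPM, the expected count of a gene relative to the total of its library, scaled by edgeR's TMM factors over the 6 libraries, and the values of a group are given in the order of libraries 1, 2 and 3.

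The 6 libraries held between 12861256 and 14324527 counts, and all 21 libraries held between 11875455 and 16471171. In the 6 libraries, 3 counts corresponded to between 0.184 and 0.309 CPM. The 10 most abundant genes took 33.9% of the counts in C60D-2 and between 16.0% and 24.8% in the other 5 libraries, and the TMM factor was 0.678 in C60D-2 and between 0.949 and 1.27 in the others. The label gives the tissue of all libraries as whole fish. Yet most lens and retina genes, 45 of 99 liver genes, 8 of 20 heart genes and 20 of 60 gut genes were at or under 1 CPM in all 3 C60D libraries. These counts are of list genes with a C45D mean above 1 CPM. Genes of muscle, skin, blood and nerve sheaths were present in C60D. How this came about was not tested. Age and organ content differed together between C60D and C45D. They therefore cannot be told apart for any gene, including the genes outside the organ lists and those that rose. Library 3 of each group stood apart from the usual behaviour of a replicate. In the 6622 genes with at least 50 counts in every C60D library whose level differed more than 1.5-fold between C60D-1 and C60D-2, C60D-3 lay between the other libraries in 99.2%. C45D-3 likewise lay between C45D-1 and C45D-2 in 97.6% of 3733 such genes. The weights that best rebuilt C60D-3 were 50.2% of C60D-1 and 49.8% of C60D-2, and those that best rebuilt C45D-3 were 48.8% of C45D-1 and 51.2% of C45D-2. After that mix was taken away, the remaining noise in genes of 100 to 500 counts was 1.097 and 1.111 times the counting error, whereas in the other 5 groups of the series it was between 1.86 and 10.6 times. Libraries C60D-3 and C45D-3 thus held little beyond a mix of the other libraries of their group. The labels call all 3 libraries of a group biological replicates, and how libraries 3 were made was not tested. Tests over the 6 libraries treat them as independent, which makes their p-values and standard errors too small. For the same reason, groups that do not overlap, or that spread little, rest mainly on libraries 1 and 2. Library 3 adds little to either. Calls without C60D-3 and C45D-3 are therefore given as well for most lists, in the text or in the plot of calls by list.

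**Figure D1:**
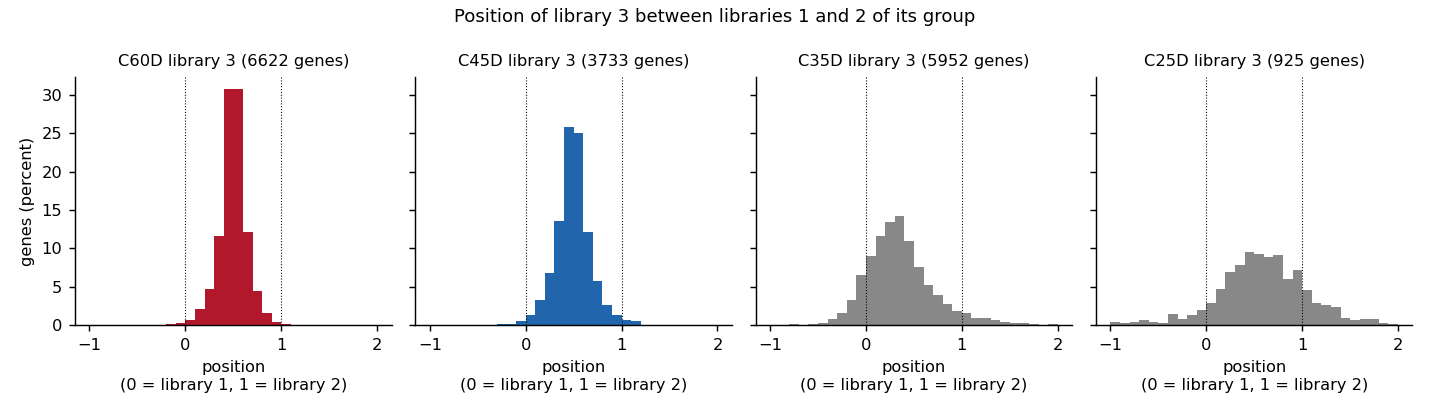
Position of library 3 between libraries 1 and 2 of its group, as the level in library 3 minus that in library 1, divided by the level in library 2 minus that in library 1 (x axis, no unit), against the percent of genes (y axis, bins of 0.1), for genes with at least 50 counts whose level differed more than 1.5-fold between libraries 1 and 2. C60D (red, 6622 genes) and C45D (blue, 3733 genes) peak midway between the dotted lines that mark libraries 1 and 2, while C35D and C25D (grey), younger controls shown beside them, spread more widely.

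Of 20388 genes with enough counts to be tested, 2042 (10.0%) rose and 3714 (18.2%) fell in C60D relative to C45D by edgeR's quasi-likelihood test over the 6 libraries, at an adjusted p of at most 0.05 (Benjamini-Hochberg). Without C60D-3 and C45D-3, the remaining 4 libraries called 8 genes higher (0.0388% of 20602) and 177 lower (0.859%), and all 8 and 176 of the 177 were also called over 6 libraries. A second fit took the spread from 10 control libraries, namely C60D and C45D without library 3 together with the younger groups C35D and C25D, and it called 728 genes higher (3.31% of 22007) and 2211 lower (10.0%), of which 723 and 2112 were also called over 6 libraries. These are called the 6-library, the 4-library and the 10-library fit from here on. The C35D libraries in the 10-library fit differed in organ content. Their mean log2 CPM was -3.64, 4.76 and 3.62 for the lens list, against 6.93, 6.65 and 6.93 for the liver list. The 10-library fit takes in this spread, so its numbers of eye and of liver genes called are not directly comparable. The shares given here are those to set beside the list members called in each fit. With the replicate number as a block, the 6-library fit called 1106 genes higher (5.42%) and 2736 lower (13.4%). The scaling mattered for the balance of the directions. With library size alone, the median log2 fold change of all genes was -0.28 in place of 0.04, and the calls were 507 higher and 3955 lower.

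The falling genes were divided by what was left of them at 60 dpf. A gene was counted as near absent when all 3 C60D libraries were at or under 1 CPM and the C45D mean was above 1 CPM. This held for 1895 of 19470 genes (9.73%), and 1509 of the 3714 genes that fell (40.6%) were near absent. Together these 1895 genes took 0.0468% of the counts in C60D and 3.31% in C45D. Of the other genes that fell, 2154 had a C45D mean above 1 CPM and were not near absent, and 51 had a C45D mean of at most 1 CPM. The organ lists, which cover eye, brain, liver, gut, pancreas, heart, kidney, gill and pituitary, held 568 genes. Among the 512 of them with a C45D mean above 1 CPM, 243 (47.5%) were near absent in C60D. Of the 500 organ genes tested, 354 fell and 6 rose in the 6-library fit. Among the 19888 other genes tested, 3360 fell and 2036 rose, and 2072 of those that fell were not near absent. Near the threshold, slc9a3.1 reached 0.928 CPM at most in C60D and averaged 1.63 CPM in C45D, just inside, and f9b reached 1.03 CPM in C60D and averaged 7.97 CPM in C45D, just outside. The near absent genes are a description of the same libraries, and no test was made of their number.

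**Figure D2:**
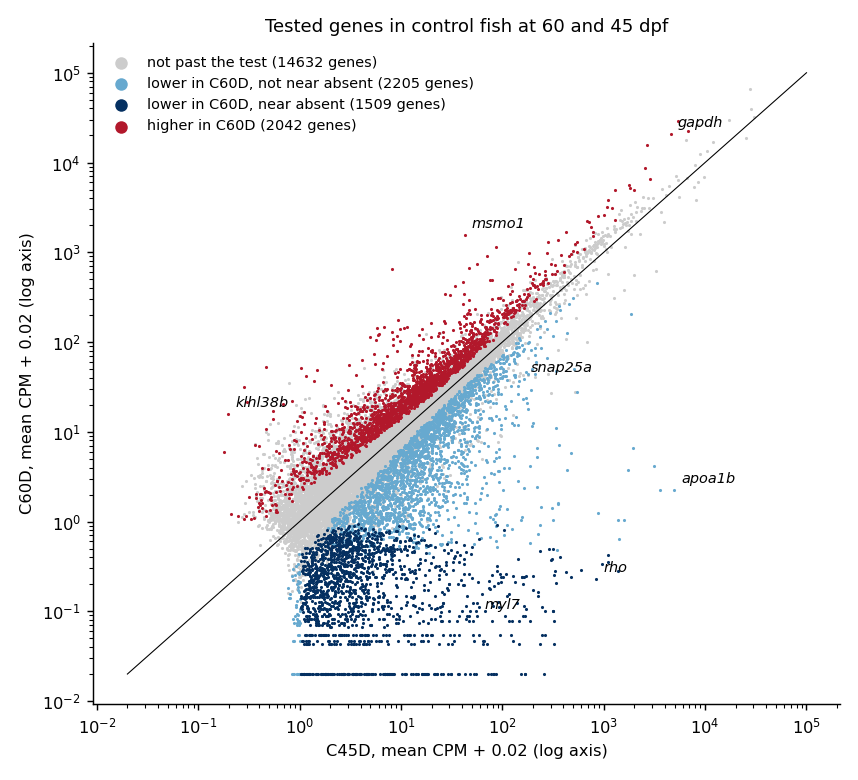
Mean level of each tested gene in C60D (y axis) against C45D (x axis), both as CPM plus 0.02 on log axes, with the line of equal levels. The 1509 genes that fell and were near absent (dark blue) form a layer below 1 CPM in C60D that reaches from 1 to over 100 CPM in C45D, apart from the 2205 other genes that fell (light blue) and the 2042 that rose (red).

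Most genes of the eye were near absent at 60 dpf. Phototransduction begins when light changes a visual pigment, which acts through the G protein transducin. The photoreceptor list had 75 tested members, of which 74 fell and none rose, against 18.2% of all tested genes that fell. Its median log2 fold change was -7.20, or -6.78 with genes of at most 3 C60D counts set at their bound. Rhodopsin (rho), the rod pigment, had 0.213, 0.412 and 0 CPM in C60D, against 1186, 494 and 823 CPM in C45D (log2 fold change -11.99 ± 0.82 SE, edgeR adjusted p = 0.000421). The transducin gene gnat1, which couples to rhodopsin in rods, had 0, 0.206 and 0.0807 CPM in C60D, against 219.9, 119.28 and 155 CPM in C45D (edgeR adjusted p = 0.000263). No C60D library came near any C45D library for either gene. The retinol-binding protein gene rbp4l had 0.0708, 0.103 and 0 CPM in C60D, against 215, 156 and 189 CPM in C45D (edgeR adjusted p = 0.000139). In C60D, 61 of the 75 photoreceptor genes with a C45D mean above 1 CPM were near absent, and 10 of the 79 matched genes had no count at all. Of the list, 58 were called lower in the 10-library fit and 19 in the 4-library fit.

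Lens genes were as low. Crystallins are the structural proteins that make the lens transparent. Of 57 tested lens genes, 56 fell and none rose, against 18.2% of all tested genes that fell. Their median log2 fold change was -9.63, or -8.85 at the bounds. The beta crystallin gene crybb2 had 0.0708, 0 and 0 CPM in C60D, against 346, 303 and 326 CPM in C45D (edgeR adjusted p = 0.000139). The gamma crystallin gene crygs3 had 0 CPM in all 3 libraries of C60D, against 64.9, 92.8 and 82.9 CPM in C45D, so that it was at least 968-fold lower in C60D when 3 counts over the group are taken as the floor (edgeR adjusted p = 0.000368). No C60D library reached the level of any C45D library for either gene. Near absence held for 58 of 64 lens genes with a C45D mean above 1 CPM, and 18 of the 65 matched genes had no count in C60D. In the 10-library fit 41 lens genes were lower and in the 4-library fit 26. Eye genes were also low in some libraries of other groups. The mean log2 CPM of the lens list was -3.78, -2.85 and -3.86 in C60D, against 5.66, 3.86 and 5.13 in C45D, and it was -3.64 in C35D-1, -3.36 in T45D-1, -3.49 in T45D-3 and -3.40 in T60D-2.

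Genes of neurons fell, but less completely than those of the eye. Of 90 tested neuron genes, 74 fell and none rose (median log2 fold change -3.46), against 18.2% of all tested genes that fell. Of 89 with a C45D mean above 1 CPM, 29 were near absent, against 9.73% of all such genes. Snap25a, a protein of synaptic vesicle fusion, had 26.1, 54.4 and 34.5 CPM in C60D, against 204, 132 and 152 CPM in C45D (log2 fold change -2.08 ± 0.32 SE, edgeR adjusted p = 0.00509). Its groups did not overlap, but the 10-library fit gave an edgeR adjusted p of 0.059. The neuronal membrane glycoprotein gene gpm6aa, one of the genes with the smallest p among those not near absent, had 14.4, 9.49 and 10.9 CPM in C60D, against 258, 145 and 187 CPM in C45D (log2 fold change -4.08 ± 0.30 SE, edgeR adjusted p = 0.000488). Of the neuron list, 54 genes were lower in the 10-library fit and 8 in the 4-library fit. Neurons also lie in the spinal cord and in the nerves of the trunk, so that this list does not mark the brain alone.

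Glial genes fell in part. Of 26 tested, 10 fell and none rose (median log2 fold change -0.53), against 18.2% of all tested genes that fell. Slc1a2b, a glutamate transporter of astroglia, had 1.63, 0.825 and 1.94 CPM in C60D, against 124, 69 and 94.3 CPM in C45D (log2 fold change -5.997 ± 0.39 SE, edgeR adjusted p = 0.000368), and fabp7a, the brain-type fatty acid binding protein of radial glia, had 4.18, 6.7 and 4.92 CPM in C60D, against 123, 66.7 and 88 CPM in C45D (log2 fold change -4.14 ± 0.31 SE, edgeR adjusted p = 0.000542). Both genes were lower in every C60D library than in any C45D library. The myelin basic protein gene mbpa, which is active in the sheaths of central and peripheral nerves, had 407, 743 and 529 CPM in C60D, against 428, 379.7 and 397 CPM in C45D, and its groups overlapped (edgeR adjusted p = 0.207). Slc1a2b and fabp7a were chosen after their values were seen. None of the 12 pituitary genes matched had enough counts to be tested in either group.

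Most liver genes were near absent or much reduced in all C60D libraries. The liver makes most plasma proteins, among them apolipoproteins, transferrin and the factors of coagulation and complement. Of 99 tested liver genes, 81 fell and 3 rose (median log2 fold change -7.03), against 18.2% and 10.0% of all tested genes, and 45 of 99 were near absent. Apoa1b, the main apolipoprotein of high-density lipoprotein, had 1.27, 5.26 and 0.161 CPM in C60D, against 4005, 5852 and 5084 CPM in C45D (log2 fold change -11.17 ± 1.27 SE, edgeR adjusted p = 0.00185). The transferrin gene tfa had 0.921, 4.74 and 1.05 CPM in C60D, against 2303, 4829.5 and 3738 CPM in C45D (log2 fold change -10.70 ± 0.95 SE, edgeR adjusted p = 0.000879). Both were at the level of a few CPM in C60D and among the abundant genes of C45D. Apoa2, another apolipoprotein, had 1.63, 8.14 and 2.66 CPM in C60D, against 2685, 3564 and 3119 CPM in C45D (log2 fold change -9.58 ± 0.80 SE, edgeR adjusted p = 0.000726). Apom, which encodes a carrier protein of plasma lipoproteins, had 0 CPM in all 3 libraries of C60D, against 161, 169 and 166 CPM in C45D, at least 1999.6-fold lower in C60D at a floor of 3 counts over the group (edgeR adjusted p = 0.000198). The 10-library fit called 77 liver genes lower and 2 higher, and the 4-library fit called 35 lower.

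The complement and coagulation list, which shares members with the liver list, was lower too. Of 55 tested genes, 42 fell and none rose (median log2 fold change -5.64), against 18.2% of all tested genes that fell, and 24 were near absent. Fibrinogen beta chain (fgb), which forms clots, had 0.142, 0.825 and 0.0807 CPM in C60D, against 181, 414 and 315 CPM in C45D (log2 fold change -9.87 ± 0.78 SE, edgeR adjusted p = 0.000602). The 10-library fit called 41 of these genes lower and the 4-library fit 15. The mean log2 CPM of the liver list was -0.77, 0.61 and -0.44 in C60D, against 5.85, 6.48 and 6.21 in C45D. Outside C60D, only T45D-3 with -0.25 and T60D-2 with -0.37 were near the C60D level, and the other libraries of the series lay between 4.27 and 6.96.

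Some liver list genes were higher at 60 dpf. Sult2st3, a cytosolic sulfotransferase, rose, with 1339, 607 and 964 CPM in C60D, against 174, 194 and 187 CPM in C45D (log2 fold change 2.39 ± 0.32 SE, edgeR adjusted p = 0.00317). Cyp8b1.2, a relative of the mammalian sterol hydroxylase of bile acid synthesis, rose as well, with 323, 141 and 231 CPM in C60D, against 61.5, 47.6 and 51.5 CPM in C45D (log2 fold change 2.11 ± 0.32 SE, edgeR adjusted p = 0.00491). The groups did not overlap for either of these genes, and both passed in the 10-library fit (edgeR adjusted p = 0.0125 for sult2st3 and 0.0326 for cyp8b1.2). Both were chosen after their values were seen. Pck1, the enzyme that commits carbon to gluconeogenesis in liver and kidney, had 0.708, 0.928 and 0.726 CPM in C60D, against 46.7, 158 and 104.92 CPM in C45D (log2 fold change -7.03 ± 0.57 SE, edgeR adjusted p = 0.000635), and it too was chosen after its values were seen.

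Genes of the gut fell in part. Of 59 tested, 32 fell and 1 rose (median log2 fold change -2.80), against 18.2% of all tested genes that fell. Of 60 with a C45D mean above 1 CPM, 20 were near absent, against 9.73% of all such genes. The acidic chitinase genes chia.1 and chia.3, which digest chitin in food, had the highest C45D levels of the list. Chia.1 had 0.354, 0.309 and 0 CPM in C60D, against 391, 564 and 486 CPM in C45D (log2 fold change -11.03 ± 0.66 SE, edgeR adjusted p = 0.000305). Chia.3 had 0.283, 0.515 and 0 CPM in C60D, against 367, 819.8 and 603 CPM in C45D (log2 fold change -11.16 ± 0.81 SE, edgeR adjusted p = 0.000481). Both were near absent in C60D, and both were called lower by the 4-library fit (edgeR adjusted p = 0.0323 for chia.1 and 0.0367 for chia.3). Of the gut genes, 28 were lower in the 10-library fit and 6 in the 4-library fit.

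The gut list members fabp6 and ctsl.1 differed widely between the C60D libraries. Fabp6, the bile acid binding protein of the ileum in mammals, had 0.213, 936 and 296 CPM in C60D, against 11.89, 222 and 127 CPM in C45D (edgeR adjusted p = 0.517). The cathepsin L gene ctsl.1, a lysosomal protease, had 0.638, 1743 and 612 CPM in C60D, against 10.47, 266 and 150.4 CPM in C45D (edgeR adjusted p = 0.389). C60D-1 was below every other library for both genes and C60D-2 above every other, so that no difference between the ages was shown. In the exocrine pancreas list C60D-1 was again the lowest library, while C60D-2 lay below C45D-2 and C45D-3, the list averaging -3.02, 3.62 and 2.26 on the log2 CPM scale in C60D, against 2.64, 5.56 and 5.02 in C45D. The trypsin gene prss1 had 0.567, 243 and 76.6 CPM in C60D, against 59, 743 and 465 CPM in C45D (edgeR adjusted p = 0.397). Of 29 tested exocrine genes, 3 fell in the 6-library fit, 14 with the replicate block and none in the 10-library fit, in which C60D-3 and C45D-3 were absent. Of all tested genes, 18.2% fell in the 6-library fit, 13.4% with the block and 10.0% in the 10-library fit. The kidney list stood at -1.47, 2.19 and 1.31 in C60D, against 1.57, 1.90 and 1.78 in C45D. In the 6-library fit 1 of its 22 tested genes fell, against 18.2% of all tested genes.

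Gonad genes differed widely between the C60D libraries. The germ cell list, which holds meiosis and piRNA pathway genes, averaged on the log2 CPM scale -1.60, 3.68 and 2.31 in C60D, against 0.27, 2.498 and 1.99 in C45D. The testis list stood at -1.51, 3.08 and 1.98 in C60D, against 0.04, 1.86 and 1.39 in C45D. C60D-1 was lowest and C60D-2 highest for both lists. Tekt1, a structural protein of sperm tails and other cilia, had 0.213, 135 and 42.8 CPM in C60D, against 2.99, 24.1 and 13.9 CPM in C45D (edgeR adjusted p = 0.349). Insl3, a hormone of the Leydig cells of the testis, had 0.0708, 116 and 39 CPM in C60D, against 0.823, 6.98 and 4.95 CPM in C45D (edgeR adjusted p = 0.163). Of 33 tested testis genes none passed the test in the 6-library or 10-library fit, and of 34 germ cell genes 1 fell in the 6-library fit. Over all tested genes, 10.0% rose and 18.2% fell in the 6-library fit, and 3.31% and 10.0% in the 10-library fit. The oocyte and egg coat list was low in both groups, at -1.52, -0.07 and -1.01 mean log2 CPM in C60D, against -1.49, -0.55 and -0.80 in C45D, and none of its 17 tested members passed the test. 

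**Figure D3:**
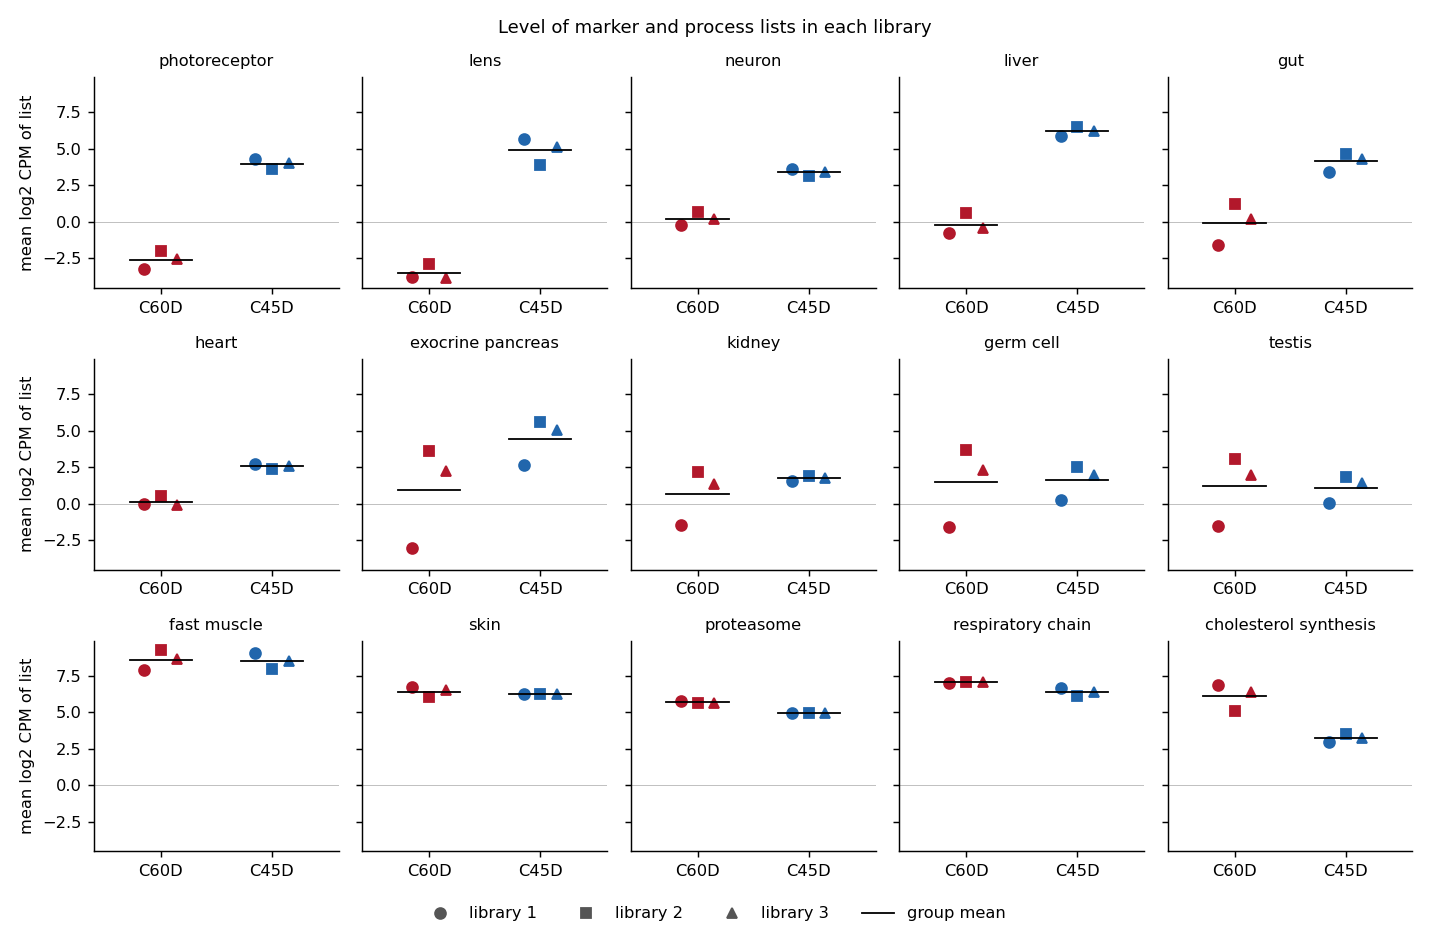
Mean log2 CPM of the members of 15 gene lists (y axis, TMM factors of all 21 libraries, prior count 0.5) in C60D (red, left) and C45D (blue, right), with circles for library 1, squares for library 2, triangles for library 3 and a bar for the group mean. Eye, neuron, liver, gut and heart lists are lower in all 3 C60D libraries than in any C45D library, exocrine pancreas, kidney, germ cell and testis lists spread widely within C60D, and the cholesterol synthesis list is higher in all 3 C60D libraries.

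Part of the heart list was near absent. Of 21 tested heart genes, 10 fell and 2 rose, against 18.2% and 10.0% of all tested genes. Of 20 with a C45D mean above 1 CPM, 8 were near absent, against 9.73% of all such genes. Myl7, the regulatory myosin light chain of cardiac muscle, had 0, 0.206 and 0 CPM in C60D, against 73.2, 43.7 and 53.4 CPM in C45D (edgeR adjusted p = 0.0004). The genes that rose were tcap, a sarcomere protein that skeletal muscle also makes, with 263, 148 and 202 CPM in C60D, against 54.7, 40.1 and 47.6 CPM in C45D (log2 fold change 2.11 ± 0.25 SE, edgeR adjusted p = 0.00225), and atp2a2a, a calcium pump of cardiac and slow skeletal muscle, with 666, 472 and 531 CPM in C60D, against 306, 219 and 265 CPM in C45D (log2 fold change 1.08 ± 0.22 SE, edgeR adjusted p = 0.0137), although the call of atp2a2a was lost with library size alone. Rag1, a subunit of the recombinase that assembles antigen receptor genes in developing lymphocytes, most of them in the thymus of a young fish, had 0, 0 and 0.0807 CPM in C60D, against 38.3, 30.5 and 32.2 CPM in C45D (edgeR adjusted p = 0.000201). The levels of myl7 and rag1 did not overlap between the ages, and both were named after their values were seen. All 10 tested genes of the pancreatic islet list fell, against 18.2% of all tested genes. In the 10-library fit 9 of its 13 tested members were lower, against 10.0% of all genes. Several of them act in neurons too, such as neurod1, a transcription factor of both cell types, which had 0.567, 0.515 and 0.484 CPM in C60D, against 54.8, 30.6 and 38.9 CPM in C45D (log2 fold change -6.28 ± 0.31 SE, edgeR adjusted p = 0.000198). Insulin was not tested in the 6-library fit, because too few libraries passed the filter on counts. It was near absent at 60 dpf, with 0.0708, 0.722 and 0.403 CPM in C60D, against 0.224, 19.2 and 10.6 CPM in C45D.

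Fast muscle genes were abundant in both groups and uneven between libraries. Their levels summed to 193579, 632578 and 334104 CPM in C60D, against 307627, 161665 and 227136 CPM in C45D, so that the groups overlapped. Of 76 tested fast muscle genes, 11 rose and 5 fell in the 6-library fit, against 10.0% and 18.2% of all tested genes. With the replicate block 3 rose, against 5.42% of all tested genes. Pvalb4, a parvalbumin that buffers calcium in fast fibers, had 19907, 41169 and 26629 CPM in C60D, against 6562, 4425 and 5379 CPM in C45D (log2 fold change 2.42 ± 0.50 SE, edgeR adjusted p = 0.0144), and the replicate block gave an edgeR adjusted p of 0.11. Of 14 tested slow muscle genes, 1 rose and 2 fell (median log2 fold change 0.27, or 0.05 with library size alone). The gene that rose, the slow myosin heavy chain gene smyhc1, had 733, 678 and 651 CPM in C60D, against 261, 156 and 199 CPM in C45D (log2 fold change 1.74 ± 0.23 SE, edgeR adjusted p = 0.00326). Tnni2a.1, a fast-type troponin I gene, was near absent, with 0, 0.103 and 0.161 CPM in C60D, against 26.8, 20.4 and 20.5 CPM in C45D (edgeR adjusted p = 0.000431). Pvalb4 and tnni2a.1 were chosen after their values were seen.

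Skin genes were called at about the rate of all genes. Of 52 tested, 8 rose and 6 fell, against 10.0% and 18.2% of all tested genes (median log2 fold change 0.24, or -0.05 with library size alone), and none was near absent. Of 25 tested red blood cell genes, 2 rose and none fell. Of 35 tested collagens, the fibrous proteins of connective tissue, 15 fell and none rose, against 18.2% of all tested genes that fell (median log2 fold change -0.70), of which 3 passed in the 10-library fit and none in the 4-library fit. The cartilage collagen gene col2a1a had 6.02, 12.3 and 8.31 CPM in C60D, against 81, 31.9 and 52 CPM in C45D (log2 fold change -2.64 ± 0.42 SE, edgeR adjusted p = 0.0059), against an edgeR adjusted p of 0.0524 in the 10-library fit. It was chosen after its values were seen.

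Of all lists, cholesterol synthesis had the highest median change at 60 dpf. Cells build cholesterol from acetyl-CoA through mevalonate, squalene and lanosterol, and the transcription factor Srebp2 raises the enzymes of this path when cell sterol is low. Of 28 tested genes of the pathway, 25 rose and 1 fell, against 10.0% of all tested genes that rose, with a median log2 fold change of 3.67. In 25 of the 28 tested genes the 3 C60D libraries lay above the 3 C45D libraries, against 20.5% of all tested genes. The 10-library fit called 21 higher, the fit with the replicate block 19, and the 4-library fit none. The list's mean log2 CPM was 6.89, 5.10 and 6.38 in C60D, against 3.00, 3.48 and 3.27 in C45D, and between 2.497 and 3.76 in the libraries of C35D and C25D.

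The rise covered early and late steps. Hmgcs1, which makes the precursor of mevalonate, had 1426, 388 and 932 CPM in C60D, against 58.8, 83.2 and 68.1 CPM in C45D (log2 fold change 3.71 ± 0.51 SE, edgeR adjusted p = 0.00349). Hmgcra, the rate-limiting reductase, had 363, 76.9 and 235 CPM in C60D, against 37.7, 55.6 and 47.1 CPM in C45D (log2 fold change 2.26 ± 0.54 SE, edgeR adjusted p = 0.0244), with an edgeR adjusted p of 0.0561 in the 10-library fit and 0.0871 with the replicate block. For both, C60D-1 was the highest and C60D-2 the lowest of the C60D libraries, and the same order held for cyp51, msmo1, ebp and dhcr7. Among the enzymes that turn lanosterol into cholesterol, the demethylase gene cyp51 had 1015, 287 and 701 CPM in C60D, against 31.7, 65.1 and 44.1 CPM in C45D (log2 fold change 3.83 ± 0.55 SE, edgeR adjusted p = 0.00404). The methyl oxidase gene msmo1 had 2349, 650.4 and 1679.5 CPM in C60D, against 35.6, 50.2 and 41.2 CPM in C45D (log2 fold change 5.20 ± 0.55 SE, edgeR adjusted p = 0.00149). The isomerase gene ebp had 1026, 207 and 698 CPM in C60D, against 5.91, 9.18 and 9.22 CPM in C45D (log2 fold change 6.31 ± 0.69 SE, edgeR adjusted p = 0.00167), the largest increase of the named genes of the path. The reductase gene dhcr7, which completes cholesterol, had 248, 38.8 and 146 CPM in C60D, against 4.79, 6.86 and 5.83 CPM in C45D (log2 fold change 4.63 ± 0.70 SE, edgeR adjusted p = 0.00484). In each of these the lowest C60D library was above the highest C45D library.

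A regulator of the pathway and the receptor for imported cholesterol were higher too. Srebf2, which encodes Srebp2, had 242, 77.1 and 165 CPM in C60D, against 21.5, 32.2 and 28.3 CPM in C45D (log2 fold change 2.56 ± 0.43 SE, edgeR adjusted p = 0.00704). The low-density lipoprotein receptor gene ldlra had 69.3, 24 and 50.1 CPM in C60D, against 15.4, 22.9 and 19.1 CPM in C45D (log2 fold change 1.32 ± 0.39 SE, edgeR adjusted p = 0.0462), with an edgeR adjusted p of 0.1 in the 10-library fit and 0.129 with the replicate block. The 1 member that fell was lbr, a sterol reductase of the nuclear envelope, with 6.16, 8.04 and 6.54 CPM in C60D, against 9.5, 13 and 11.7 CPM in C45D (log2 fold change -0.72 ± 0.21 SE, edgeR adjusted p = 0.0435), and it passed in neither the 10-library fit (edgeR adjusted p = 0.13) nor the block fit (edgeR adjusted p = 0.0717). Srebf2, hmgcra, ldlra and lbr were chosen after their values were seen. With library size alone the calls of hmgcra and ldlra were lost, and the list kept a median log2 fold change of 3.47.

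Fatty acid synthesis genes did not move as a block. Of 38 tested, 5 rose and 14 fell (median log2 fold change -0.17), against 10.0% and 18.2% of all tested genes. ATP citrate lyase (aclya), which supplies acetyl-CoA to both sterol and fatty acid synthesis, had 735, 188 and 476 CPM in C60D, against 36.3, 43 and 42.1 CPM in C45D (log2 fold change 3.53 ± 0.51 SE, edgeR adjusted p = 0.00406). Elovl2, an elongase of long polyunsaturated fatty acids that is abundant in liver and retina, had 0.496, 0.103 and 0.403 CPM in C60D, against 28.8, 47.3 and 35.7 CPM in C45D (log2 fold change -6.69 ± 0.44 SE, edgeR adjusted p = 0.000373) and was near absent. It was chosen after its values were seen. In the 10-library fit 3 of the list were higher and 6 lower.

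Genes of fatty acid oxidation rose in part. Of 37 tested, 14 rose and 6 fell (median log2 fold change 0.22), against 10.0% and 18.2% of all tested genes. With library size alone 5 rose and 7 fell (median -0.11), where 507 rose and 3955 fell among all 20388 tested genes. The 10-library fit called 8 higher and 3 lower, against 3.31% and 10.0% of all genes. Hadhb, the thiolase subunit of the mitochondrial trifunctional protein, had 466, 461 and 450.2 CPM in C60D, against 231, 169 and 185 CPM in C45D (log2 fold change 1.24 ± 0.18 SE, edgeR adjusted p = 0.00409). Acadm, a medium-chain acyl-CoA dehydrogenase, had 419, 449 and 424 CPM in C60D, against 221, 191 and 196 CPM in C45D (log2 fold change 1.09 ± 0.15 SE, edgeR adjusted p = 0.00365). The C60D libraries were nearly equal for both genes and above every C45D library. The uncoupling protein gene ucp3, which is active in muscle, had 51.4, 53.1 and 44.8 CPM in C60D, against 9.05, 4.41 and 5.76 CPM in C45D (log2 fold change 2.96 ± 0.28 SE, edgeR adjusted p = 0.00108). Its relative ucp1 moved the other way, with 0.921, 11.5 and 5 CPM in C60D, against 309, 621 and 501 CPM in C45D (log2 fold change -6.38 ± 0.93 SE, edgeR adjusted p = 0.00434). Ucp3 was chosen after its values were seen.

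Several genes that fasting or glucocorticoids raise in muscle were higher at 60 dpf. The RNA was described as from whole bodies, and in which tissue these genes rose was not tested. Of the 28 tested genes of the glucocorticoid and fasting list, 10 rose and 7 fell, against 10.0% and 18.2% of all tested genes. The list did not move in 1 direction, with 16 members above 0, 12 below and a median log2 fold change of 0.05. With library size alone 6 rose and 6 fell (median -0.25), where 507 rose and 3955 fell among all 20388 tested genes. The 10-library fit called 6 higher and 3 lower, against 3.31% and 10.0% of all genes. Fbxo32 and the Trim63 proteins are ubiquitin ligases that mark muscle proteins for breakdown. Fbxo32 had 60.2, 14.2 and 34.7 CPM in C60D, against 1.65, 1.22 and 1.22 CPM in C45D (log2 fold change 4.74 ± 0.58 SE, edgeR adjusted p = 0.00238). Trim63b had 103, 111 and 99.6 CPM in C60D, against 35.5, 21.8 and 27.9 CPM in C45D (log2 fold change 1.88 ± 0.20 SE, edgeR adjusted p = 0.00153), and trim63a had 124, 161 and 125 CPM in C60D, against 58.9, 28.7 and 42.7 CPM in C45D (log2 fold change 1.65 ± 0.28 SE, edgeR adjusted p = 0.00767), with an edgeR adjusted p of 0.0557 for trim63a in the 10-library fit. The groups of all 3 genes were separate, and trim63b was chosen after its values were seen. Sesn1, a stress-induced inhibitor of growth signalling, had 195, 133 and 154 CPM in C60D, against 40.8, 47.6 and 43.6 CPM in C45D (log2 fold change 1.87 ± 0.18 SE, edgeR adjusted p = 0.00119). Among the 7 that fell was pck1, which belongs to the liver list as well.

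Pyruvate dehydrogenase kinases, which turn muscle from glucose to fat as fuel, rose with small spread. Pdk2b had 135, 117 and 124 CPM in C60D, against 20.8, 27.6 and 22.4 CPM in C45D (log2 fold change 2.41 ± 0.16 SE, edgeR adjusted p = 0.000389). Pdk2a had 54, 47.7 and 47.2 CPM in C60D, against 10, 10.3 and 9.09 CPM in C45D (log2 fold change 2.34 ± 0.13 SE, edgeR adjusted p = 0.000257) and passed in the 4-library fit (edgeR adjusted p = 0.0495). Angptl4, a secreted inhibitor of lipoprotein lipase, had 121, 104.96 and 117 CPM in C60D, against 20.3, 21.4 and 17 CPM in C45D (log2 fold change 2.55 ± 0.15 SE, edgeR adjusted p = 0.000293). The alpha-arrestin gene arrdc2 had 139, 107 and 117 CPM in C60D, against 16.53, 14.9 and 13.9 CPM in C45D (log2 fold change 3.00 ± 0.16 SE, edgeR adjusted p = 0.000238), and its relative arrdc3a had 126, 144 and 119.25 CPM in C60D, against 30.1, 23.9 and 24.4 CPM in C45D (log2 fold change 2.31 ± 0.16 SE, edgeR adjusted p = 0.000421). Angptl4 and arrdc2 passed in the 4-library fit (edgeR adjusted p = 0.0491 for angptl4 and 0.0452 for arrdc2), as did klhl38b, which had 20.5, 9.9 and 17 CPM in C60D, against 0.0748, 0.122 and 0.339 CPM in C45D (log2 fold change 6.39 ± 0.57 SE, edgeR adjusted p = 0.000834), and ogfr2, which had 112, 77.3 and 95.6 CPM in C60D, against 13, 12.3 and 12.4 CPM in C45D (log2 fold change 2.91 ± 0.17 SE, edgeR adjusted p = 0.000302). Each of the genes in this group was higher in every C60D library than in any C45D library. Angptl4, arrdc2, arrdc3a and klhl38b were listed by a rule that takes only genes with separate groups, so for them this is no further result. The cyclin G2 gene ccng2, an inhibitor of the cell cycle, had 30.8, 33.4 and 33 CPM in C60D, against 10.4, 11.1 and 11 CPM in C45D (log2 fold change 1.58 ± 0.12 SE, edgeR adjusted p = 0.000543). Pdk2a was chosen after its values were seen.

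**Figure D4:**
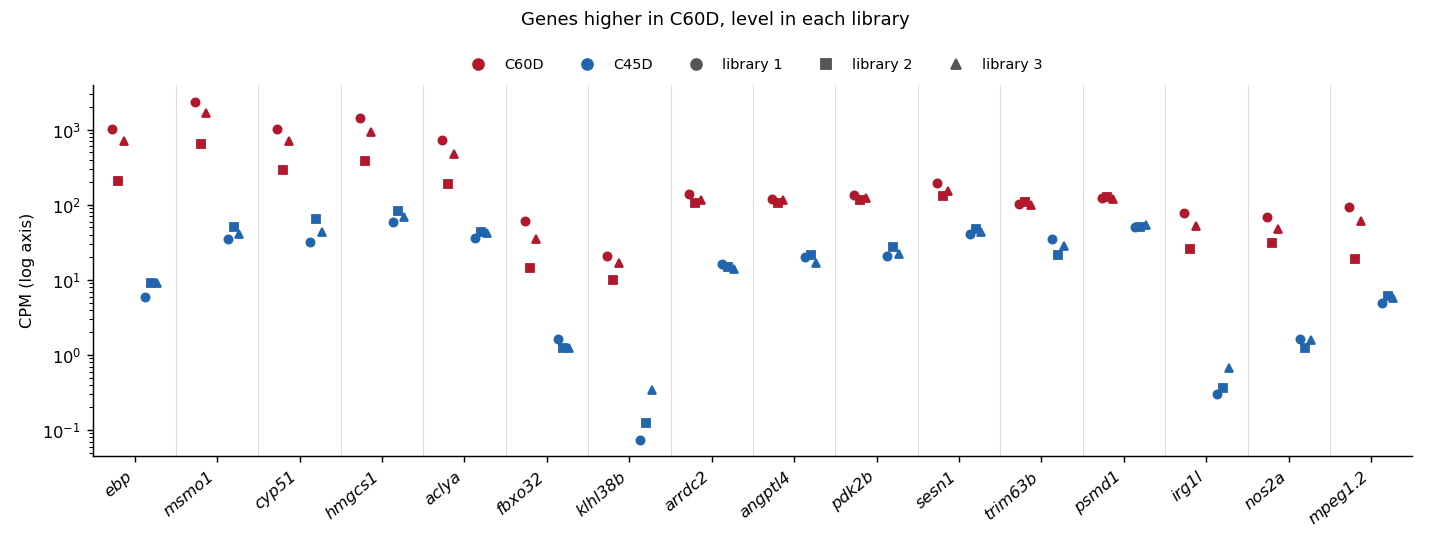
CPM (y axis, log axis) of 16 genes that rose, in the C60D libraries (red, left of each pair) and the C45D libraries (blue, right), with circles for library 1, squares for library 2 and triangles for library 3. The genes of sterol and acetyl-CoA supply (ebp, msmo1, cyp51, hmgcs1 and aclya) and irg1l, nos2a and mpeg1.2 spread widely within C60D, with C60D-2 lowest, while arrdc2, angptl4, pdk2b, trim63b and psmd1 have nearly equal levels in the 3 C60D libraries, and the groups of all 16 genes are separate.

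Many genes of the mitochondrial respiratory chain were modestly higher at 60 dpf. Of 90 tested subunits of the respiratory chain and ATP synthase, 64 rose and 4 fell, against 10.0% of all tested genes that rose (median log2 fold change 0.86, or 0.55 with library size alone), and in 78 the 3 C60D libraries lay above all C45D libraries, against 20.5% of tested genes. The call depended on the fit, since 26 rose with the replicate block, 8 in the 10-library fit and none in the 4-library fit. Cox4i1, a subunit of cytochrome c oxidase, had 864, 987 and 916 CPM in C60D, against 444, 321 and 375 CPM in C45D (log2 fold change 1.28 ± 0.20 SE, edgeR adjusted p = 0.00563). Of 28 glycolysis genes, 9 rose and 5 fell, against 10.0% and 18.2% of all tested genes. Gapdh, an enzyme of glycolysis, had 13582, 29767 and 18221 CPM in C60D, against 5348, 3889 and 4494 CPM in C45D (log2 fold change 2.16 ± 0.47 SE, edgeR adjusted p = 0.0174), with an edgeR adjusted p of 0.114 with the replicate block. It is also a common reference gene, and its groups did not overlap. Cox4i1 was chosen after its values were seen.

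Most proteasome subunits were higher at 60 dpf. The proteasome degrades proteins that carry ubiquitin. Of 43 tested subunits, 36 rose and 1 fell (median log2 fold change 0.80, or 0.49 with library size alone), against 10.0% of all tested genes that rose. The fit with the replicate block called 26 higher, the 10-library fit 22 and the 4-library fit none. Psmd1, a subunit of the regulatory cap, had 123, 126 and 118.84 CPM in C60D, against 51.2, 50.8 and 53.5 CPM in C45D (log2 fold change 1.24 ± 0.11 SE, edgeR adjusted p = 0.000951). Psma4, a subunit of the core ring, had 99.8, 122 and 106 CPM in C60D, against 57.4, 53.7 and 55.8 CPM in C45D (log2 fold change 0.97 ± 0.13 SE, edgeR adjusted p = 0.00313), although its call was lost with library size alone. In 40 of the 43 the C60D libraries lay above all C45D libraries, against 20.5% of tested genes.

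Of 21 tested genes of MHC class I and II and their peptide supply, 8 rose and none fell, against 10.0% of all tested genes that rose (median log2 fold change 0.98), and 4 rose in the 10-library fit, 4 with the block and none in the 4-library fit. Tap2a, a transporter that loads peptides onto class I molecules, had 22.3, 11 and 17.5 CPM in C60D, against 3.67, 5.08 and 4.88 CPM in C45D (log2 fold change 1.90 ± 0.30 SE, edgeR adjusted p = 0.006), and was chosen after its values were seen. Nos2a, the inducible nitric oxide synthase, had 68.5, 31.4 and 48.1 CPM in C60D, against 1.65, 1.22 and 1.56 CPM in C45D (log2 fold change 5.06 ± 0.35 SE, edgeR adjusted p = 0.000451), and irg1l, a relative of the mammalian gene whose enzyme makes itaconate, had 78.8, 25.5 and 52.1 CPM in C60D, against 0.299, 0.367 and 0.678 CPM in C45D (log2 fold change 6.83 ± 0.58 SE, edgeR adjusted p = 0.000757). Both are among the 12 largest increases under the naming rule, which takes only genes whose groups do not overlap. The macrophage perforin gene mpeg1.2 had 92.7, 19 and 61.2 CPM in C60D, against 4.86, 6.18 and 5.7 CPM in C45D (log2 fold change 3.37 ± 0.57 SE, edgeR adjusted p = 0.00726). Serum amyloid A (saa), an acute-phase protein, had 29.8, 1.75 and 19.7 CPM in C60D, against 0.224, 1.16 and 0.203 CPM in C45D (log2 fold change 4.95 ± 1.19 SE, edgeR adjusted p = 0.0244), but passed in neither the 10-library fit (edgeR adjusted p = 0.0647) nor the block fit (edgeR adjusted p = 0.11). Over the leukocyte list as a whole, 2 of 39 tested genes rose and 6 fell, against 10.0% and 18.2% of all tested genes.

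Calls were counted in other housekeeping groups as well. For comparison, 10.0% of all tested genes rose and 18.2% fell in the 6-library fit. These shares were 3.31% and 10.0% in the 10-library fit, and 5.42% and 13.4% with the replicate block. Of 81 tested ribosomal protein genes, 1 rose and none fell, and of 75 ribosome biogenesis genes, 5 rose and 11 fell. Dkc1, which modifies ribosomal RNA, had 22.6, 30.4 and 21.9 CPM in C60D, against 58.7, 62.1 and 57.2 CPM in C45D (log2 fold change -1.25 ± 0.16 SE, edgeR adjusted p = 0.00283). Of 20 tested aminoacyl-tRNA synthetase genes, 7 rose and none fell, 6 of them also in the 10-library fit and 3 with the block. The isoleucyl-tRNA synthetase gene iars1 had 59.5, 107 and 64.4 CPM in C60D, against 31.9, 25.6 and 29.2 CPM in C45D (log2 fold change 1.41 ± 0.25 SE, edgeR adjusted p = 0.00882). Both genes were chosen after their values were seen. Of 78 tested DNA replication and cell cycle genes, 12 rose and none fell, against 2 higher in the 10-library fit and 4 with the block. Of 47 heat shock and chaperone genes, 3 rose and 10 fell, and the 10-library fit called 1 and 2. Hspa5, the main chaperone of the endoplasmic reticulum, had 124, 111 and 114 CPM in C60D, against 164, 443 and 335 CPM in C45D (log2 fold change -1.43 ± 0.36 SE, edgeR adjusted p = 0.0272), with C45D-1 closest to the C60D levels, and passed in neither the 10-library fit (edgeR adjusted p = 0.123) nor the block fit (edgeR adjusted p = 0.0755). Of 37 clock genes, 8 rose and 7 fell, and bhlhe40, a repressor in the circadian clock, had 199, 197 and 195 CPM in C60D, against 90.4, 74 and 77.5 CPM in C45D (log2 fold change 1.29 ± 0.14 SE, edgeR adjusted p = 0.0016). The hour of sampling was not given in the sources used here.

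**Figure D5:**
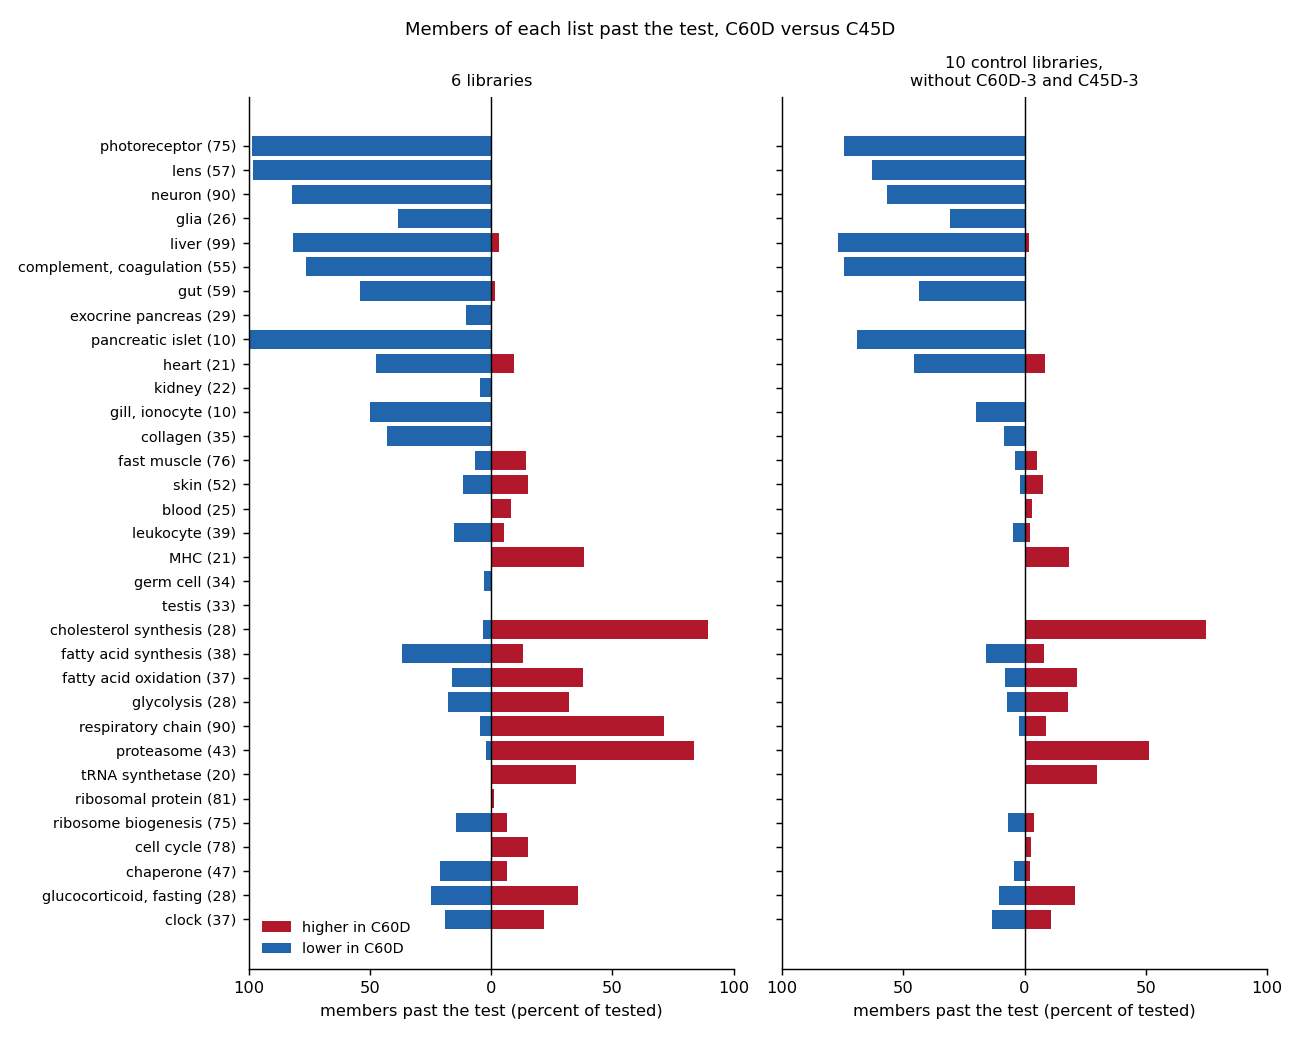
Percent of the tested members of each list (number tested over 6 libraries in brackets) that were higher (red, to the right) or lower (blue, to the left) in C60D than in C45D at an adjusted p of at most 0.05 by edgeR, over the 6 libraries (left panel) and over 10 control libraries without C60D-3 and C45D-3 (right panel). Eye, neuron, liver, gut and islet lists extend to the left and the cholesterol synthesis and proteasome lists to the right in both panels, while the respiratory chain list shortens to 8 of 90 members in the right panel.

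The organ lists did not hold every organ gene. Outside them, 1652 genes were near absent in C60D, and the most abundant of these in C45D included further genes of the same organs. Leg1.1, named for its enrichment in liver, had 0.496, 0.515 and 0 CPM in C60D, against 871, 1312 and 1134 CPM in C45D. The inter-alpha-trypsin inhibitor gene itih3b.2, a plasma protein, had 0.0708, 0.928 and 0.161 CPM in C60D, against 272, 454 and 376 CPM in C45D. Glucokinase (gck), the glucose sensor enzyme of the liver, had 0, 0.412 and 0.242 CPM in C60D, against 111, 209 and 170.0 CPM in C45D. The gamma crystallin gene crygm2a had 0 CPM in all 3 libraries of C60D, against 349.8, 174 and 242 CPM in C45D. The cerebellin family gene cbln8, to which no organ was assigned here, had 0.142, 0.103 and 0 CPM in C60D, against 237, 292 and 266 CPM in C45D. All 5 were far below every C45D library in each C60D library, and all but crygm2a were named after their values were seen. So the split by lists puts some organ genes among the others, and its counts depend on the lists. Among genes that fell but were not near absent, ca2, a carbonic anhydrase of ionocytes and red blood cells, had among the smallest p, with 20.7, 21.8 and 20.2 CPM in C60D, against 72.1, 94.8 and 78 CPM in C45D (log2 fold change -1.97 ± 0.15 SE, edgeR adjusted p = 0.000518).

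The change from 45 to 60 dpf was also set against that in the heated fish, T60D against T45D, in a fit of 12 libraries. For the difference between the changes, edgeR's quasi-likelihood test called 0 of 21590 genes in either direction, and the lowest adjusted p was 0.148. Without adjustment, at p of 0.05, the control change was higher than the heated change in 1023 genes and lower in 2421. Leaving out T45D-2 gave 207 and 930 calls, leaving out T60D-2 gave 46 and 884, and without T45D-3 the calls were 0 and 1. The heated libraries differed among themselves. The photoreceptor list averaged a log2 CPM of 4.23, -2.57 and 2.18 in T60D, against -0.60, 2.75 and -2.65 in T45D, whereas it was -3.25, -1.98 and -2.56 in C60D, against 4.33, 3.60 and 4.00 in C45D. For cholesterol synthesis the list stood at 4.94, 2.68 and 3.35 in T60D, against 2.75, 2.99 and 2.48 in T45D. In the fit of 12 libraries, no difference between control and heated change was shown for any gene.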

How the data were processed

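Libraries were sequenced on the BGISEQ-500 platform. Per the submitters' processing notes, the tools named were HISAT2 2.0.4, Bowtie2 2.2.5, RSEM 1.2.12 and DESeq2 1.4.5, on build GRCz11. The authors deposited an expected count per gene (RSEM, not normalized) and an FPKM value per gene, and the FPKM values entered no test. Across libraries, FPKM divided by CPM varied by a median of 0.0049 (SD over mean) in 4778 genes with at least 100 counts throughout. Of 26225 gene numbers, 24087 were given a symbol from a RefSeq gene list (assembly GRCz12tu) used for names only, and 1 more from the study's supplement. No column of values was left unused.

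Expected counts were rounded, filtered by edgeR's filterByExpr, scaled by TMM and tested with edgeR 4.0.16 (glmQLFit and glmQLFTest, R 4.3.3) with Benjamini-Hochberg adjustment at 0.05. DESeq2 1.42.0, other scalings and filters, the replicate block, wider fits and leaving out libraries were alternatives. The fit was also run on simulated data, in which every library was drawn independently. That run therefore does not cover the case of C60D-3 and C45D-3, which were close to mixes of the other libraries. Same-numbered libraries deviated together (correlation 0.43, 0.26 and 0.26 for numbers 1, 2 and 3), and the replicate block was fitted for this reason. These correlations cannot show pairing. With libraries 3 close to equal mixes of libraries 1 and 2, they hold little beyond 1 contrast per group, that between libraries 1 and 2. The block fit also keeps C60D-3 and C45D-3. The 40 gene lists were written by hand, and 3 more were added after the data were seen. Members and lists were chosen with earlier results of these data known. Lists carry counts and medians, with no test. A rule listed 195 genes, namely, per direction, the 12 largest changes whose groups do not overlap (mean of at least 10 CPM), the 8 smallest p among genes not near absent, and the 4 most abundant members of each list. The 8 with the smallest p also had to have groups that do not overlap and a mean of at least 10 CPM in the lower group. For genes listed by change or by p, separate groups follow from the rule and are no further result. The text names 54 of the 195 genes, selected with their values known, and 30 genes outside the rule, which are marked as chosen after their values were seen. Some results are not reported here. The floor of 3 counts covers counting error only, whereas standard errors include the spread between the 6 libraries. Like the p-values, these standard errors are too small, because C60D-3 and C45D-3 are treated as independent.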

Additional observations from a re-analysis of the deposited data

How the results depend on the processing

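Over the 6 libraries, 2042 genes were higher and 3714 lower in C60D. The counts were 8 and 177 without C60D-3 and C45D-3, 728 and 2211 in the 10-library fit, 313 and 1348 in a fit of all 21 libraries, and 3022 and 4390 in a fit of all 12 control libraries. Leaving out 1 library at a time gave 544 to 3376 higher and 2201 to 4247 lower genes. The lowest counts came without C45D-3 (544 and 2201) or C60D-3 (762 and 2205), and the highest without C60D-2 (3376 and 4247). The replicate block left 1106 higher and 2736 lower, and in the difference between control and heated change it gave 0 calls either way. Library size alone gave 507 higher and 3955 lower, a fold threshold of 1 on the log2 scale 1086 higher, a minimum of 10 counts in every library 2238 lower, and an unadjusted p 3513 higher. DESeq2 called 2538 higher and 4082 lower. Near absent organ genes numbered 243 at 1 CPM, 183 at 0.5 CPM, 317 at 3 CPM, 265 with library size alone, 245 without both libraries 3, and 239 to 280 with 1 library left out. The difference between control and heated change gave 0 to 207 higher and 0 to 930 lower genes with 1 library left out. Of 84 genes named here, 78 passed over 6 libraries, of which 21 passed in the 4-library fit, 68 in the 10-library fit, 70 with the block and 78 with DESeq2, and none of the 84 changed direction under any alternative in which it could be fitted. The 4-library and 10-library fits and the leaving out of libraries for near absent genes were added after the data were seen. Why the calls moved was not tested. For genes with no count in C60D, depth limits the fold to the bound given by 3 counts over the group.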

Other observations

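Transcription factors that pattern the body along its axis were counted in 3 further lists. These lists, and the genes named from them, were chosen after the data were seen and were given no test of their own. Of 18 tested transcription factor genes of forebrain, midbrain and eye, 11 fell and none rose, against 18.2% of all tested genes that fell (median log2 fold change -2.45), and 7 of 18 were near absent in C60D, against 9.73% of all genes. Of this list, 4 were lower in the 10-library fit, 6 with the replicate block and none in the 4-library fit. Otx2b, a factor of the forebrain, midbrain and eye, had 0, 0.103 and 0 CPM in C60D, against 17.1, 7.53 and 9.97 CPM in C45D (edgeR adjusted p = 0.00112). Tbr1b, a factor of forebrain neurons, had 0 CPM in all 3 libraries of C60D, against 4.04, 2.45 and 2.44 CPM in C45D, at least 35.9-fold lower in C60D at a floor of 3 counts over the group (edgeR adjusted p = 0.00329). Of 22 tested Hox genes of paralog groups 9 to 13, which are active in the trunk and tail, 4 rose and none fell, against 10.0% of all tested genes that rose, and none of 20 was near absent (median log2 fold change 0.52). None of them was called in the 10-library or the 4-library fit, and 2 were higher with the replicate block. The difference between these lists was not tested. Hoxc10a had 36.6, 24 and 31 CPM in C60D, against 16.2, 6.98 and 11.87 CPM in C45D (log2 fold change 1.39 ± 0.33 SE, edgeR adjusted p = 0.0237), and hoxd9a had 21.3, 21.4 and 22.9 CPM in C60D, against 15.2, 6.31 and 10.17 CPM in C45D (log2 fold change 1.05 ± 0.31 SE, edgeR adjusted p = 0.049). Neither Hox gene passed with library size alone or in the 10-library fit (edgeR adjusted p = 0.122 for hoxc10a and 0.167 for hoxd9a), and hoxd9a did not pass with the replicate block (edgeR adjusted p = 0.0632). Of 14 tested Hox genes of paralog groups 1 to 5, 3 rose and 3 fell, against 10.0% and 18.2% of all tested genes. In the 10-library fit none of 15 was higher and 3 were lower, against 3.31% and 10.0% of all genes. Of 13 with a C45D mean above 1 CPM, 3 were near absent, against 9.73% of all such genes. What caused these differences was not tested.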
